A study of Mus musculus with 50 samples.

Results

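6 genes stood out in the gastrocnemius muscle of 18 months-old mice: Ube2c, Rabep2, A930016O22Rik and 9430073C21Rik were lower, and Mpzl3 and Gm7609 higher, than in 8 months-old mice. They were picked by symbol because of that difference, as 6 of 23880 genes in the deposited tables, and all 6 were among the 12586 genes tested, which reached 1 CPM (counts per 1000000 of a library) in 8 mice or more. The values at 18 months are therefore a description, and only what happened later, and what happened within ages, can be tested. In the mice of 22 to 28 months the 4 lower genes lay partly back towards their 8-month level, while Mpzl3 and Gm7609 stayed up on average. At 24 months, though, the median of Mpzl3 was 9.94 CPM, inside the 8-month range.

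The muscles came from 50 male, wild-type C57BL/6JRj mice, an inbred laboratory strain, with 1 mouse per library. The groups of 8, 18, 22 and 24 months held 8 mice each, and those of 26 and 28 months 9 mice each. All were housed one to a cage and fed the purified AIN93M diet, and mice with overt illness or tumours were not used. The older groups, from 22 months, had been on this diet since middle age, whereas the mice of 8 and 18 months received it for a shorter acclimatisation, so diet history and age cannot be told apart across these groups. The sample numbers given by the submitters ran consecutively through the ages, so that anything done in that order cannot be told apart from age either. Total counts were 15042861 to 20515435 at 8 months and 13758961 to 21267375 at 18 months, within an overall range of 13607229 to 21267375. The tissue matched its label: the summed TPM (transcripts per 1000000, corrected for length) of 9 fast muscle fibre genes was 191200 to 219100 at 8 months, 190400 to 230700 at 18 months and 149100 to 237800 later.

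Ube2c encodes the ubiquitin-conjugating enzyme with which the anaphase-promoting complex marks cyclins and other mitotic proteins for destruction, and its mRNA is usually found in dividing cells. Rabep2 encodes a rabaptin, an effector of the small GTPase Rab5 in fusion of early endosomes. A930016O22Rik and 9430073C21Rik are non-coding RNA genes of unknown role that run antisense to muscle genes. Mpzl3 encodes a single-pass membrane protein with an immunoglobulin domain, best known from hair and skin. Gm7609 is a little studied gene near Sp100, a nuclear body gene, and is classed as a transcribed pseudogene by GENCODE.

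All 4 genes that were lower at 18 months shared a feature of position: on GRCm38, exons of each lay opposite exons of a muscle fibre gene on the other strand. The share of all genes with such a position was not counted, so nothing is read from this number. A930016O22Rik and 9430073C21Rik are classed as antisense genes by GENCODE, so for them the position follows from the class. Ube2c (chr2:164769898-164778822, plus strand) shared 592 exonic bases with Tnnc2, the fast troponin C. Rabep2 (chr7:126428759-126449245, plus strand) shared 763 bases with Atp2a1, the fast sarcoplasmic calcium pump SERCA1. In both, nearly all of this lay outside the gene's own coding sequence, with 32 and 0 coding bases of Ube2c and Rabep2 respectively. A930016O22Rik (chr7:19417466-19421417, minus strand) shared 451 bases with Ckm, the muscle creatine kinase. 9430073C21Rik (chr11:67195680-67199234, minus strand) shared 237 bases with Myh2, the myosin heavy chain of type IIA fibres. Neither Mpzl3 (chr9:45055186-45077436, plus strand) nor Gm7609 (chr1:85199613-85213786, plus strand) had an exonic base opposite another gene of the tables. The partners took far more reads, with a mean over the 50 mice, not corrected for length, of 8940 CPM for Tnnc2, 35370 for Atp2a1 and 25580 for Ckm against 2.40 for Ube2c, 6.10 for Rabep2 and 4.44 for A930016O22Rik. Myh2 took fewer, at 96.1 CPM against 0.91 CPM for 9430073C21Rik.

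The ends of 2 such overlaps are shown because they make plain that one stretch of DNA is read in both directions. Each is written 5′ to 3′ on the gene's own strand from GENCODE transcripts on GRCm38, with capitals for bases that lie opposite an exon of the partner. The first is chr7:19420067-19420146 (minus strand) with the Ckm bases chr7:19420107-19420146, and the second is chr11:67197206-67197285 (minus strand) with the Myh2 bases chr11:67197236-67197285.
A930016O22Rik: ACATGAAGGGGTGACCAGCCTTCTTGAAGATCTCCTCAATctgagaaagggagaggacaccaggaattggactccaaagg
Ckm: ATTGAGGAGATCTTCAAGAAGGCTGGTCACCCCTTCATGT
9430073C21Rik: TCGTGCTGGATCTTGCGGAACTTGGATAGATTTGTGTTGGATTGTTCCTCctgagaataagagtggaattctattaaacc
Myh2: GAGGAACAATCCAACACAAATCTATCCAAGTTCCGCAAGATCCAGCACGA
The capitals of A930016O22Rik are the reverse complement of 40 bases of Ckm, and those of 9430073C21Rik of 50 bases of Myh2. Reads were assigned with their strand, and a read from the overlap can be given to one of these genes only by its strand.

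Of the 2523 different 31-base words of A930016O22Rik, 372 stood in Ckm transcripts on the opposite strand, and the same held for 454 of 2570 words of Ube2c with Tnnc2 and for 680 of 5369 words of Rabep2 with Atp2a1. 9430073C21Rik shared 210 of 2132 words with Myh2, 91 with Myh1 and 91 with Myhas, an antisense RNA of the same myosin cluster, the last on its own strand. The remaining words of Ube2c were not private to it, since 452 other genes held at least 1 of them on the same strand, the most being 43 words. The same held for A930016O22Rik, with 306 other genes and at most 46 words. Gm7609 shared 290 of 2551 words with Sp100 on the same strand, so its counts, in which reads that fit several transcripts are divided, are uncertain. Mpzl3 shared a single word of 7015, with St7l. These counts came from GENCODE vM21 and not from the release the authors used.

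Ube2c had a lowest, median and highest value of 2.44, 4.77 and 6.35 CPM at 8 months and of 0.64, 0.84 and 2.01 CPM at 18 months. All 8 mice of 18 months lay below all 8 mice of 8 months, and the fitted difference was -2.18 on the log2 scale (95% interval -2.75 to -1.61), 4.53-fold lower. The reads behind it were few, 11 to 31 per mouse at 18 months against 49 to 129 at 8 months. Later levels lay in between, with means of 2.88 ± 0.83 (SD, n = 8) at 22 months, 2.41 ± 1.23 (SD, n = 8) at 24 months, 1.84 ± 0.63 (SD, n = 9) at 26 months and 1.93 ± 0.84 (SD, n = 9) at 28 months. Neighbouring ages in the order of means, 8, 22, 24, 28, 26 and 18 months, overlapped at every step.

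Rabep2 had a lowest, median and highest value of 7.21, 9.43 and 11.2 CPM at 8 months and of 3.10, 3.79 and 5.11 CPM at 18 months. Again all 8 mice of 18 months were below all 8 of 8 months, with a fitted log2 difference of -1.20 (95% interval -1.52 to -0.87). The means were 6.22 ± 1.20 (SD, n = 8) at 22 months, 5.60 ± 2.44 (SD, n = 8) at 24 months, 5.88 ± 1.11 (SD, n = 9) at 26 months and 5.91 ± 1.04 (SD, n = 9) at 28 months. These 4 ages overlapped with each other, and in the order of means only the 8-month group stood apart from its neighbour, the 22-month group.

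A930016O22Rik had the clearest pattern, with a lowest, median and highest value of 3.78, 7.65 and 10.9 CPM at 8 months and of 0.96, 1.32 and 2.43 CPM at 18 months. All 8 mice of 18 months were again below all 8 of 8 months, and the fitted log2 difference was -2.31 (95% interval -2.84 to -1.77), 4.95-fold lower. At 22 months the median was 6.10 CPM, with a range of 2.62 to 9.74, and none of these 8 mice reached down to the 18-month range. The means at 24, 26 and 28 months were 4.01 ± 1.89 (SD, n = 8), 4.07 ± 1.17 (SD, n = 9) and 3.96 ± 1.14 (SD, n = 9). The 18-month group stood apart from its neighbour in this order, the 28-month group, whereas the other ages overlapped.

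9430073C21Rik was the least abundant of the 4, with a lowest, median and highest value of 0.70, 1.13 and 3.54 CPM at 8 months and of 0.24, 0.42 and 0.87 CPM at 18 months. Here 7 of the 8 mice of 18 months lay below the 8-month range. The fitted log2 difference of -1.54 (95% interval -2.17 to -0.91) rested in part on a single 8 months-old mouse, replicate 3 at 3.54 CPM, without which it was -1.18. The later means ran from 0.81 ± 0.25 (SD, n = 9) at 26 months to 1.08 ± 0.25 (SD, n = 8) at 22 months, and all neighbouring ages overlapped.

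Mpzl3 had a lowest, median and highest value of 5.07, 8.32 and 10.01 CPM at 8 months and of 13.3, 17.0 and 25.7 CPM at 18 months. All 8 mice of 18 months were above all 8 of 8 months, with a fitted log2 difference of 1.16 (95% interval 0.73 to 1.58). It stayed near that level at 22 months, with a mean of 16.2 ± 3.998 (SD, n = 8), and was 10.9 ± 3.99 (SD, n = 8) at 24 months, 14.8 ± 5.03 (SD, n = 9) at 26 months and 14.4 ± 6.23 (SD, n = 9) at 28 months. Each age from 18 months on had a higher mean than 8 months, although 7 of the 34 mice of 22 to 28 months were within the 8-month range. At 24 months the median, 9.94 CPM, lay inside that range, and 24 months was not tested against 8 months by itself.

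Gm7609 was close to the limit of detection at 8 months, with 2 to 7 reads per mouse and a lowest, median and highest value of 0.11, 0.22 and 0.35 CPM. At 18 months the values were 0.45, 0.57 and 2.37 CPM, all above the 8-month mice, and the fitted log2 difference was 1.97 (95% interval 1.18 to 2.77). The means of the 5 older ages lay between 0.80 ± 0.40 (SD, n = 9) at 28 months and 0.92 ± 0.37 (SD, n = 8) at 24 months, without a visible trend.

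**Figure D1:**
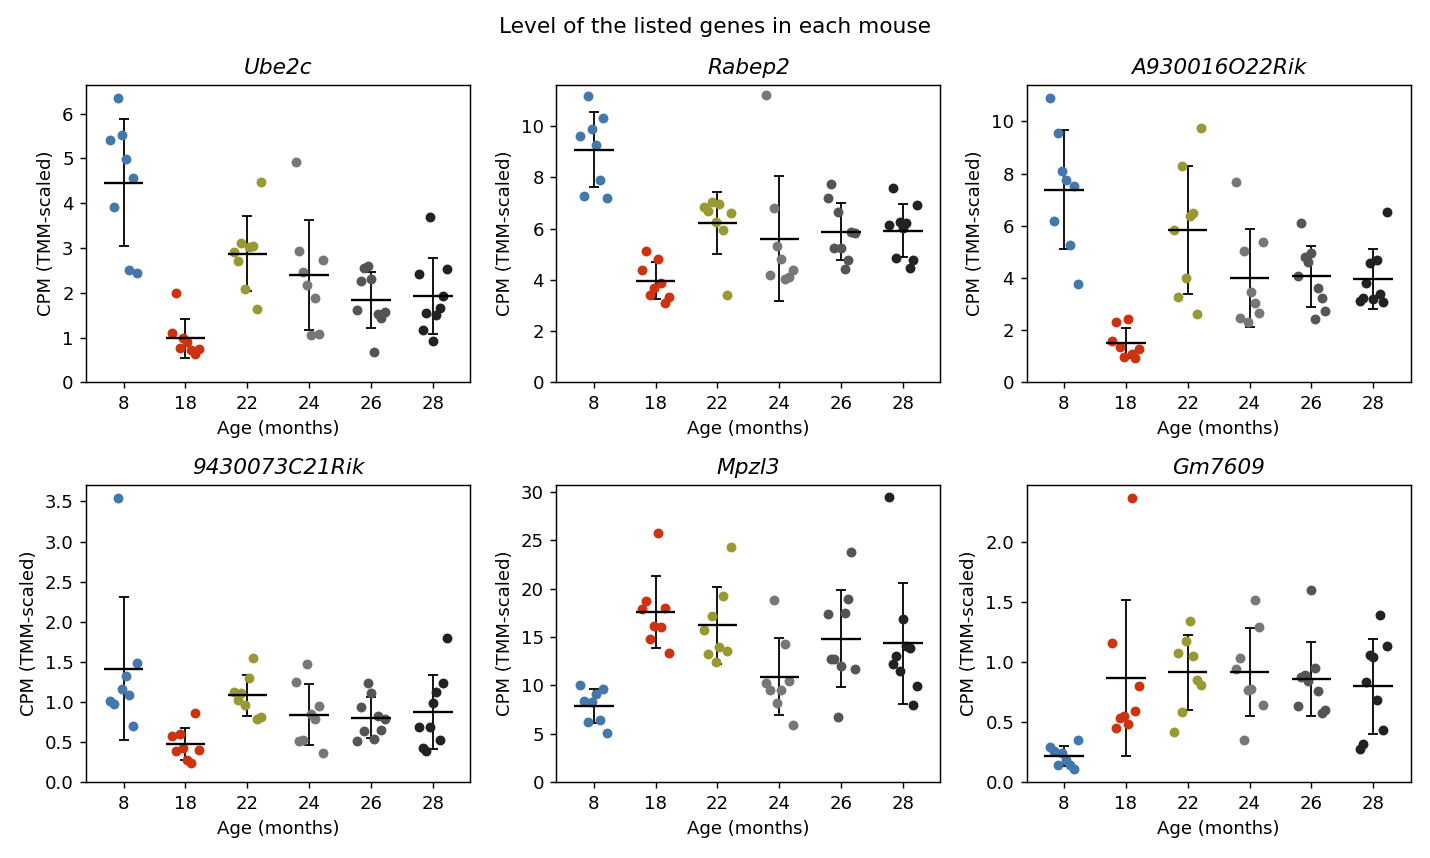
Level of each listed gene (CPM with TMM scaling, linear axes from 0) in each of 50 mice by age in months; points are mice, horizontal bars are means and error bars are SD. For the 4 lower genes the 18-month mean is the lowest and the later means lie in between, with overlapping mice, whereas for Mpzl3 and Gm7609 the 8-month group is the low one and later ages stay up.

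Compared per length, as TPM means at 8 and 18 months, the order of the 6 genes changed with age. At 8 months A930016O22Rik was highest (8.04 ± 2.16 TPM, SD, n = 8), followed by Rabep2 (7.31 ± 0.75 TPM) and Mpzl3 (5.14 ± 0.95 TPM). At 18 months Mpzl3 led with 11.7 ± 2.76 TPM (SD, n = 8), and A930016O22Rik had 1.58 ± 0.56 TPM. The ranges of Mpzl3 and Rabep2 at 18 months, 8.92 to 17.3 and 2.83 to 4.52 TPM, did not overlap.

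Whether the shift was carried by every 18 months-old mouse or by some was read from each mouse in turn. In 5 of the 6 genes all 8 mice of 18 months lay outside the 8-month range, and in 9430073C21Rik 7 did. By deposited TPM it was also 7 for Gm7609. Of all 12586 genes tested, 0.0795% had no overlap between these ages, and this comparison chose the genes, so nothing is read from the count. Set against all 42 other mice, the 18-month group was not separate for any listed gene: 6 of 8 mice lay below every other mouse for A930016O22Rik, 3 for Rabep2, 2 for 9430073C21Rik, 1 for Ube2c, 0 for Mpzl3 and 1, on the high side, for Gm7609. No gene of the 12586 had all 8 outside the range of the other 42, a share of 0.0%. The least shifted mouse was replicate 2 for Ube2c, Rabep2 and Gm7609, replicate 5 for A930016O22Rik, replicate 7 for 9430073C21Rik and replicate 8 for Mpzl3, so that no single mouse was the least shifted throughout. In Ube2c the highest mouse, at 2.01 CPM, was well above the next at 1.11 CPM. Among the 34 mice of 22 to 28 months, 15 were at or below that highest 18-month value of Ube2c, 11 for Rabep2, 1 for A930016O22Rik and 18 for 9430073C21Rik.

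Whether the shift was undone later was then tested in contrasts that leave out the 18 months-old mice, although these mice entered the estimate of the spread. The mean of the 4 older ages was compared with 8 months, a comparison that shares its 8 months-old mice with the one that chose the genes and so is not independent of it. With edgeR's quasi-likelihood test and Benjamini-Hochberg adjustment over all genes (FDR), 5 of the 6 genes passed FDR 0.01, where 18.2% of all tested genes did. Ube2c was lower, with a log2 difference of -0.99 ± 0.20 (SE; FDR = 0.000134), and so were Rabep2 with -0.62 ± 0.12 (FDR = 0.000162) and A930016O22Rik with -0.74 ± 0.18 (FDR = 0.00172). Mpzl3 was higher by 0.82 ± 0.17 (FDR = 0.000524) and Gm7609 by 1.97 ± 0.35 (FDR = 1.07e-05). At 8 months Gm7609 reached at most 0.35 CPM, so only mice of 18 months and later let it pass the filter of 1 CPM in 8 mice or more. Its tests against 8 months are therefore not independent of the filter, and a gene this low at all ages would not have been tested. 9430073C21Rik, at -0.67 ± 0.22 (FDR = 0.0131), did not pass, its interval was -1.10 to -0.23, and without replicate 3 of 8 months its value was -0.31.

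Put as a share of the 18-month difference on the log2 scale, the mean of the older ages lacked 54.4% of it for Ube2c, 48.5% for Rabep2, 67.9% for A930016O22Rik and 56.7% for 9430073C21Rik, where replicate 3 of 8 months weighs on both terms. It lacked 28.9% for Mpzl3 and 0.0912% for Gm7609. For the 4 lower genes the older mice thus lay about midway between both ages, and A930016O22Rik lacked the largest share. For Gm7609 the older mean was at the 18-month mean, which leaned on 1 mouse: without replicate 6 of 18 months, the difference between 22 and 18 months was 0.48. Genes chosen for a large difference at one age tend to show a smaller one at others, so part of these shares is built into the choice.

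At 22 months alone, 4 months after the 18-month time point, only Gm7609 passed FDR 0.01 against 8 months (log2 difference 2.05 ± 0.39, FDR = 0.00509), where 0.0397% of all genes did. Leaving out any of 5 mice of 8 months (replicates 2 to 6) raised its FDR to between 0.0103 and 0.0158. The limit set by the filter holds here too, since no mouse of 8 months reached 1 CPM for Gm7609. The tests at 22 months also share their 8 months-old mice with the choice of the genes. Mpzl3 missed the threshold (1.04 ± 0.21, FDR = 0.0134). Of the 6 genes 4 had an unadjusted edgeR p below 0.05, and DESeq2 called 2 and limma 0. The lower genes had intervals of -1.13 to -0.12 for Ube2c, -0.86 to -0.23 for Rabep2, -0.81 to 0.14 for A930016O22Rik and -0.94 to 0.17 for 9430073C21Rik. In the direct contrast of 22 and 18 months, which contains the mice that chose the genes, log2 differences were 1.55, 0.66, 1.97 and 1.15 for these 4 genes, and -0.12 and 0.08 for Mpzl3 and Gm7609. That contrast had 0.00795% of all genes past FDR 0.01, and no call of a listed gene is read from it.

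At 28 months 39.6% of all tested genes passed FDR 0.01 against 8 months. Ube2c, Rabep2, A930016O22Rik, Mpzl3 and Gm7609 were among them, with log2 differences of -1.21 ± 0.25 for Ube2c (FDR = 0.000113), -0.61 ± 0.15 for Rabep2 (FDR = 0.000813) and -0.90 ± 0.23 for A930016O22Rik (FDR = 0.00131). Mpzl3 stood at 0.87 ± 0.21 (FDR = 0.000607) and Gm7609 at 1.84 ± 0.39 (FDR = 6.09e-05). These tests share their 8 months-old mice with the choice of the genes and so are not independent of it. For Gm7609 the test is also not independent of the filter on low counts. 9430073C21Rik did not pass (-0.70 ± 0.28, FDR = 0.0277), and without replicate 3 of 8 months its value was -0.35.

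The one comparison that shares no mouse with the choice of the genes was 28 against 22 months. In it 0 of the 6 genes passed FDR 0.01 by edgeR, DESeq2 or limma, where 27.7% of all tested genes did by edgeR, and 2 had an unadjusted edgeR p below 0.05. Those were Ube2c (-0.58 ± 0.26, 95% interval -1.10 to -0.06, FDR = 0.0645) and A930016O22Rik (-0.56 ± 0.24, 95% interval -1.03 to -0.09, FDR = 0.0499). The intervals of the others were -0.39 to 0.24 for Rabep2, -0.89 to 0.25 for 9430073C21Rik, -0.58 to 0.23 for Mpzl3 and -0.81 to 0.39 for Gm7609. A 2-fold fall lay inside the intervals of Ube2c and A930016O22Rik and outside those of the other 4 genes.

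**Figure D2:**
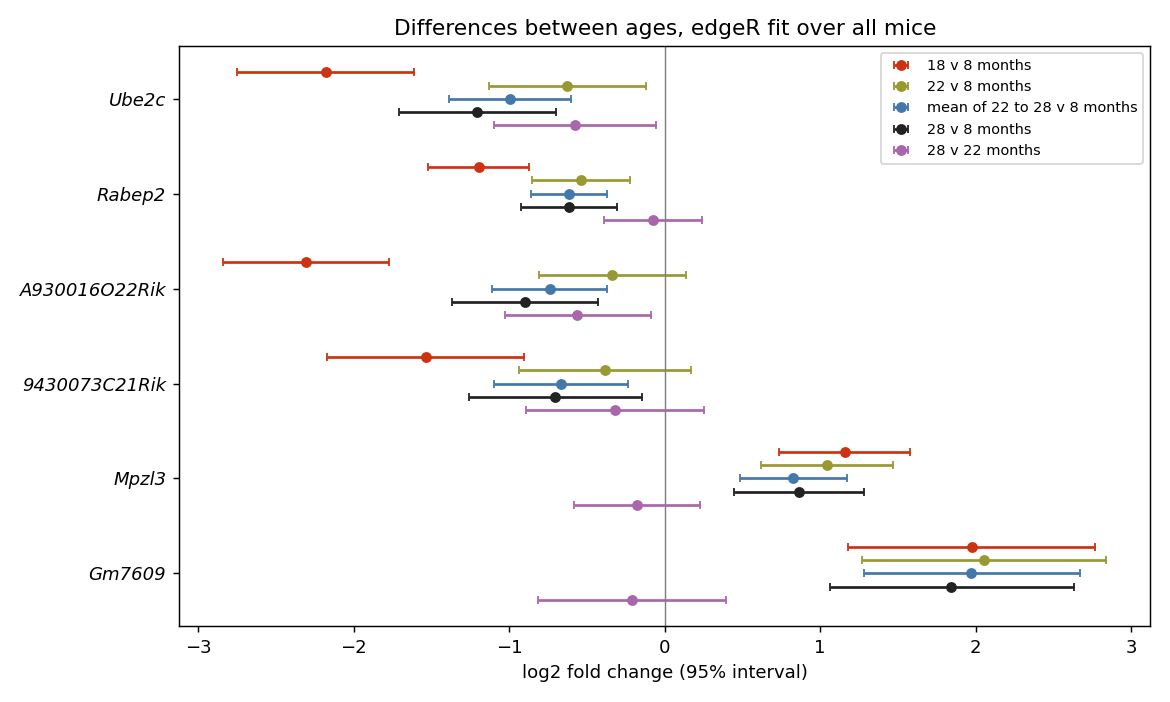
Fitted log2 fold changes with 95% intervals for the listed genes in 5 comparisons of ages (18, 22, 28 and the mean of 22 to 28 months against 8 months, and 28 against 22 months). For Ube2c, Rabep2, A930016O22Rik and 9430073C21Rik the red 18-month point lies farther from 0 than the later ones, whereas for Mpzl3 and Gm7609 the later points against 8 months lie beside it.

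How far the listed genes moved together was first read within the 8 mice of 18 months, where the shift of the group mean plays no part. Over 15 pairs, 0 passed an adjusted p of 0.05 by exact permutation. The highest were Rabep2 with A930016O22Rik (Pearson's r = 0.87, exact permutation p = 0.00675, adjusted 0.0506; Spearman's rho = 0.79, exact p = 0.0279, adjusted 0.276; n = 8) and Ube2c with Rabep2 (r = 0.79, exact permutation p = 0.00613, adjusted 0.0506; rho = 0.76, exact p = 0.0368, adjusted 0.276; n = 8). Without the 2 mice farthest from the median of the first gene these were 0.53 and 0.62. 9430073C21Rik did not follow the other lower genes in these mice, with r of -0.55 to -0.22.

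The 42 mice of the other ages held more information. With each gene centred on its age mean, in a comparison added after the data had been seen, Ube2c and A930016O22Rik varied together (r = 0.72, permutation p = 1e-05, adjusted 0.00015; rho = 0.69, permutation p = 1e-05, adjusted 0.00015; n = 42), where 1e-05 is the smallest p that 100000 permutations can give. So did Rabep2 with A930016O22Rik (r = 0.65, permutation p = 3e-05, adjusted 0.000225; rho = 0.60, permutation p = 8e-05, adjusted 0.0006) and Ube2c with Rabep2 (r = 0.56, permutation p = 0.00045, adjusted 0.00225; rho = 0.51, permutation p = 0.00122, adjusted 0.0061). Without the 2 farthest mice r was 0.67, 0.52 and 0.43. Each of the 3 pairs with 9430073C21Rik was positive, with r of 0.22 to 0.29, but none passed, and the 9 pairs that include Mpzl3 or Gm7609 ran from -0.32 to 0.18 with none past 0.05. The mice of these pairs share their library, and r of each gene with the total count of the library was 0.24 for Ube2c, 0.47 for Rabep2 and 0.20 for A930016O22Rik, whose part in the relation was not tested.

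Among all 12585 other genes tested, ranked by the same r over the 42 mice, Ube2c was the first for A930016O22Rik and Rabep2 the fifth, and A930016O22Rik was the first for Rabep2. For Ube2c, A930016O22Rik was the second, behind Zmat2 (r = 0.74), and Rabep2 ranked 13. For Mpzl3 and Gm7609 the first genes, which like Zmat2 are named after their values were seen, were Odc1 (r = 0.59) and Mpzl1 (r = 0.66).

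**Figure D3:**
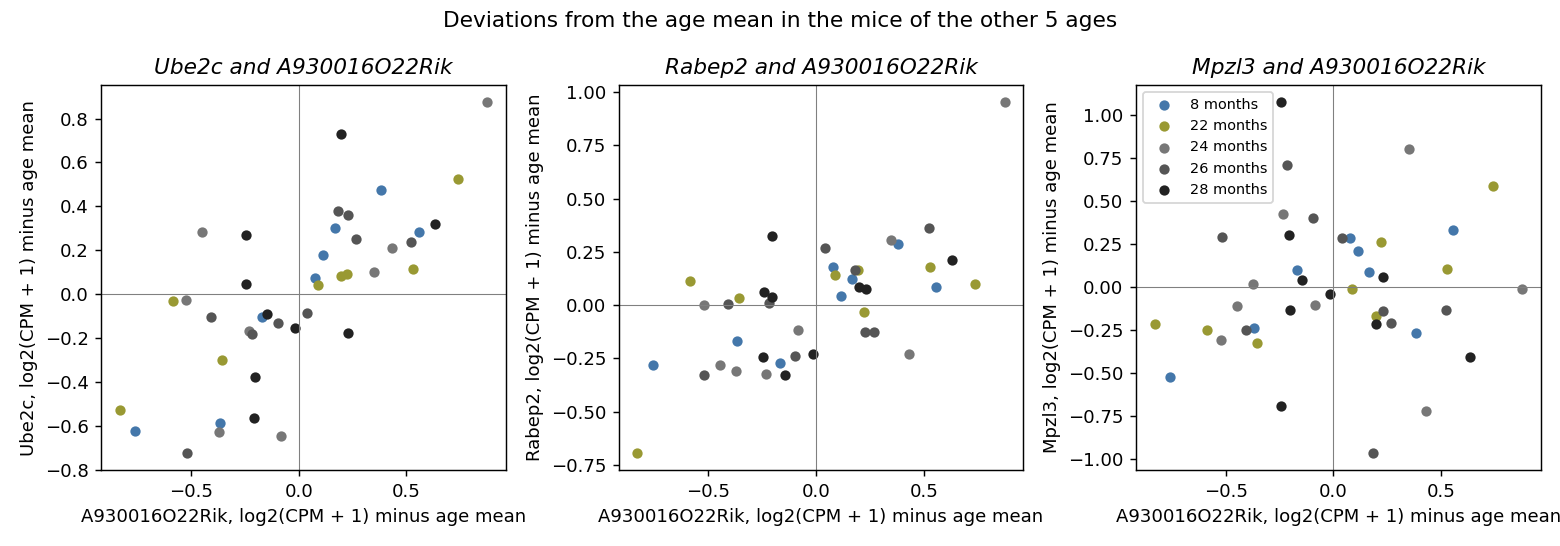
Deviation from the age mean of log2(CPM + 1) for Ube2c, Rabep2 and Mpzl3 (vertical axes) against A930016O22Rik (horizontal axes) in the 42 mice of the other 5 ages, each point a mouse coloured by age. Ube2c and Rabep2 rise with A930016O22Rik (r = 0.72 and 0.65), whereas the points of Mpzl3 are scattered (r = 0.10).

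Over all 50 mice, 18 months included, the 3 genes most like each of the 4 lower genes were the other 3 of them, out of 12585. For Ube2c they were A930016O22Rik (r = 0.86), Rabep2 (r = 0.79) and 9430073C21Rik (r = 0.55), and Rabep2 with A930016O22Rik gave 0.83. Since the common 18-month difference chose these genes, this likeness is partly built in. Mpzl3 was most like Spag5 (r = 0.61), Tdrp (r = 0.58) and Pkp2 (r = 0.56). Gm7609 was most like Gm4951 (r = 0.69), 9930111J21Rik1 (r = 0.63) and Trim12a (r = 0.60), where the first 2 belong to the interferon-inducible GTPases.

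The genes on the opposite strand were compared between the same ages. Between 18 and 8 months the log2 differences were -0.05 ± 0.11 (SE) for Tnnc2, 0.05 ± 0.10 for Atp2a1, 0.13 ± 0.12 for Ckm and -0.02 ± 0.28 for Myh2, each with an FDR of 1.0. These were small beside the differences of the 4 lower genes. For the mean of the older ages against 8 months they were -0.17, 0.23, 0.05 and 0.40, with a lowest FDR of 0.0247 for Atp2a1.

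Levels as reads per 1000000 reads of the partner were compared as well. A930016O22Rik had a lowest, median and highest value of 202.0, 303.8 and 387.6 reads per 1000000 Ckm reads at 8 months and of 37.0, 56.7 and 89.9 at 18 months. On this scale all 8 mice of 18 months lay below all 42 others, which the CPM had not shown. The 18 months-old mice chose this gene, and the share of all genes so separated on such a scale was not computed, so nothing is read from it. Ube2c had 283.6, 472.1 and 573.8 reads per 1000000 Tnnc2 reads at 8 months and 79.5, 99.1 and 136.7 at 18 months, and 4 mice of other ages were at or below the highest of 18 months, against 15 by CPM.

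For Rabep2, in reads per 1000000 Atp2a1 reads, the lowest, median and highest values were 199.7, 296.8 and 394.5 at 8 months and 101.7, 115.1 and 164.5 at 18 months, and 21 mice of other ages were at or below the highest of 18 months, against 11 by CPM. Medians at 8 months were 5.36 times those at 18 months for A930016O22Rik, 4.77 times for Ube2c and 2.58 times for Rabep2, and those of the older mice were 2.82, 2.64 and 1.34 times the 18-month medians. 9430073C21Rik over Myh2 was scattered, with 0 of 8 mice of 18 months below all others and 37 mice of other ages at or below the highest of 18 months, against 19 by CPM. Reads of Myh1 and Myh4, which share words with this gene on the opposite strand, are not in that ratio. This scale was chosen after the data had been seen and is given without a test. Counts per gene do not tell whether a read counted for one of these genes came from its own transcript.

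**Figure D4:**
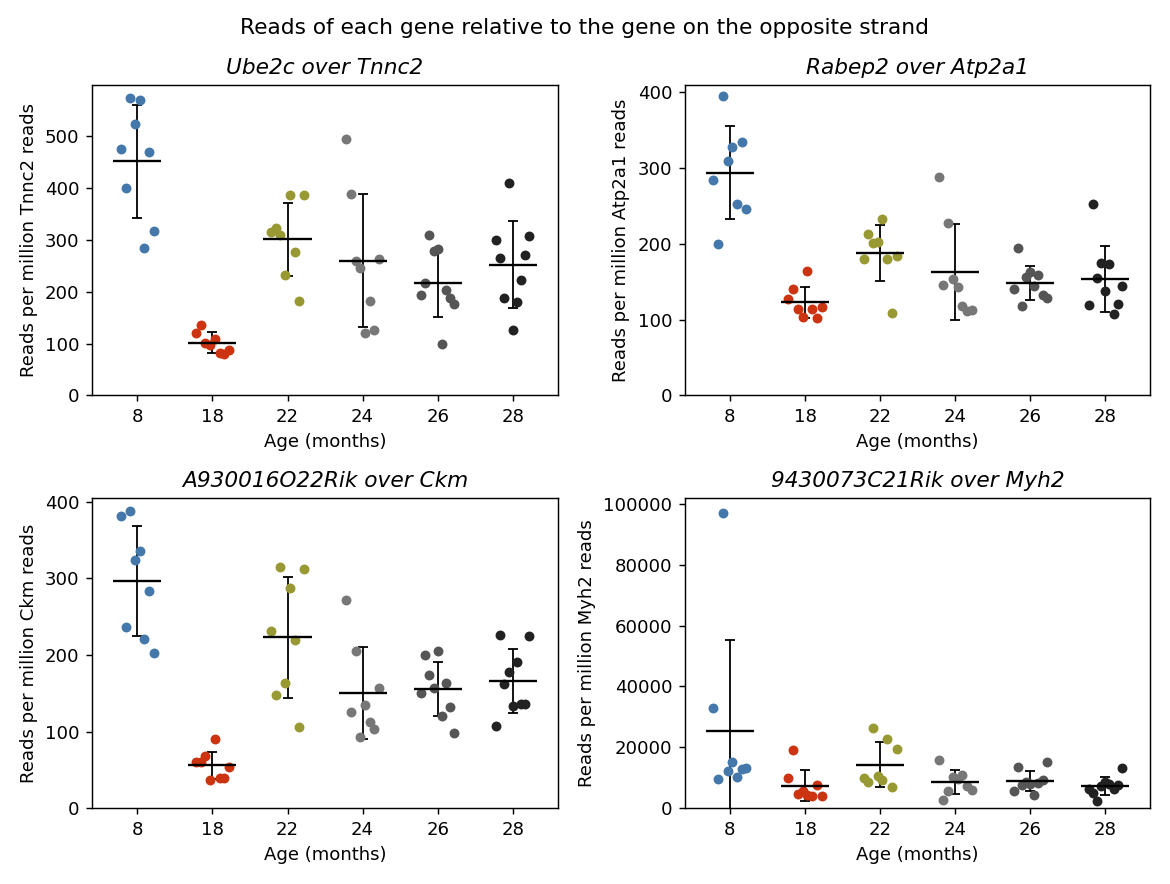
Levels of Ube2c, Rabep2, A930016O22Rik and 9430073C21Rik as reads per 1000000 reads of the gene on the opposite strand (Tnnc2, Atp2a1, Ckm and Myh2; linear axes from 0) in each mouse by age in months, with means as bars and SD as error bars. For A930016O22Rik over Ckm the 18 months-old mice, at 37.0 to 89.9, lie below all others. For Ube2c, Rabep2 and 9430073C21Rik, 4, 21 and 37 mice of other ages lie at or below the highest of 18 months.

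A position like that of Ube2c, Rabep2 and A930016O22Rik was looked up for all other genes of the tables, after the values of the listed genes had been seen and so with no test. 9430073C21Rik with Myh2 does not meet the limits used. There were 22 further genes with at least 31 exonic bases opposite one of 21 partners of at least 500 CPM and with a CPM over 1000 times below that of the partner. They were sparse, with a median of 42 reads over all 50 mice, and only 3 passed the filter on low counts. In reads per 1000000 partner reads, pooled over the mice of an age, 17 of the 22 were lower at 18 than at 8 months, 16 were lower at 18 months than in the older mice, and 13 were lower than in both. The median log2 ratio was -1.19 between 18 and 8 months and -0.84 between 18 months and the older mice, and genes with 0 to 2 reads at 18 months weigh in it. Summed over the 20 genes with under 1000 reads in all mice, there were 409 reads at 8 months and 290 at 18 months, in 8 mice each. The 34 older mice held 2044. These sums are not corrected for depth, and median total counts were 18409468 at 8 months and 16576378 at 18 months. Over all tested genes 50.5% had a negative log2 difference between 18 and 8 months, and their median was -0.0017, with the difference that these are not ratios to a partner.

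Among the 22, chosen for naming after their values were seen, Gm26604 opposite Ryr1 (the calcium release channel) had 87 reads at 8 months, 39 at 18 months and 308 in the 34 older mice, or 828.0, 405.6 and 669.1 reads per 1000000 Ryr1 reads. Pdzd9 opposite Uqcrc2, a subunit of respiratory complex III, had 13, 2 and 30 reads. The genes of the 22 with the most reads were level between 8 and 18 months: Iffo1 opposite Gapdh had 763.7, 771.4 and 1019 reads per 1000000 partner reads and Spsb2 opposite Tpi1 682.4, 686.0 and 1111. The ratios of the 22 genes were given without counting error, and most rest on under 100 reads in all mice.

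The nearest genes on the chromosome were looked up as well, 2 on each side of each listed gene and the partners among them. Those tested had log2 differences between 18 and 8 months of -0.36 to 0.62, with a lowest FDR of 0.867. Dnttip1 and Snx21 beside Ube2c stood at 0.03 and 0.15, Mark4 and Bloc1s3 beside A930016O22Rik at 0.09 and 0.00018, and Sh2b1 beside Rabep2 at 0.11. Of the myosin genes beside 9430073C21Rik, Myh1 stood at -0.0055, and the antisense RNA Myhas, on the same strand, at -0.19. Mpzl2, a relative of Mpzl3 next to it, stood at -0.36, and Jaml on its other side at 0.57. Sp110, an interferon-responsive nuclear body gene beside Gm7609, stood at 0.62 (FDR = 0.867).

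Genes that work with Ube2c in its textbook role were measured in the same libraries. Of 20 other genes of the anaphase-promoting complex, its E2 enzymes and regulators, 0 passed FDR 0.01 between 18 and 8 months with edgeR, DESeq2 or limma, and 0 had an unadjusted p below 0.05, against 0.0715% past FDR 0.01 among all genes. Their median log2 difference was 0.03, with a range of -0.10 to 0.12, beside -0.0017 for all genes. Anapc5, the most abundant, had 788.2 ± 52.8 CPM at 8 months and 841.4 ± 145.5 at 18 months (SD, n = 8 each), and Ube2d1, another E2 enzyme, 164.7 ± 28.3 and 161.1 ± 26.2.

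Of 12 mitotic and proliferation genes that passed the filter, out of 32 listed, 0 passed between 18 and 8 months with any of the 3 tools and 1 had an unadjusted p below 0.05. Their median was 0.11, on the higher side, with 10 of 12 above 0. Tpx2, a spindle factor, had 8.56 ± 2.24 CPM at 8 months, 8.97 ± 1.60 at 18 months and 4.13 ± 1.17 at 28 months, where it had fallen (log2 difference -1.05 ± 0.17, FDR = 4.67e-06). Aurka, the mitotic kinase, likewise had 10.9 ± 1.66, 12.2 ± 2.97 and 4.94 ± 2.80 CPM and had fallen by 28 months (-1.14 ± 0.24, FDR = 0.000122). Between 28 and 8 months 3 of the 12 rose and 4 fell, and in the anaphase-promoting complex 5 of 20 rose and 6 fell, against 39.6% of all genes.

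Rabep2 works with Rab5 on early endosomes. Of 28 other Rab5 and early endosome genes 0 passed by any of the 3 tools and 0 had an unadjusted p below 0.05, with a median of 0.04. Rab7, a late endosome GTPase, had 317.3 ± 50.6 CPM at 8 months and 337.2 ± 42.5 at 18 months, and Rab5b 180.1 ± 5.65 and 177.8 ± 5.46 (SD, n = 8 each). At 28 months 7 of the 28 had risen and 1 had fallen, beside 39.6% of all genes past the threshold, with Hgs of the endosomal sorting machinery showing the largest change (1.27 ± 0.21, FDR = 4.88e-06).

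Of the close relatives of Mpzl3, Mpzl1 and Mpzl2 had log2 differences of -0.30 and -0.36 between 18 and 8 months, opposite in sign to that of Mpzl3, each with an FDR of 1.0. At 28 months Mpzl1 had fallen (-0.43 ± 0.13, FDR = 0.00405).

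Of 7 other Sp100 nuclear body genes 0 passed with the 3 tools at 18 months and 2 had an unadjusted p below 0.05, beside 0.0715% and 460 of all 12586 genes, with a median of 0.12. Daxx, a histone chaperone, was the 1 of the 7 to pass at 28 months, where 39.6% of all genes did (0.72 ± 0.14, FDR = 4.05e-05). Atrx did not pass (FDR = 0.0955).

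Bulk muscle RNA cannot tell fewer cells of a type from less RNA per cell, so marker lists were summed in TPM for each age. No listed marker was at 0 in all mice. In the 13 marker lists 0 genes passed FDR 0.01 between 18 and 8 months by edgeR, DESeq2 or limma, and an unadjusted edgeR p below 0.05 was seen for 1 macrophage gene and 1 immediate early gene. The macrophage sum, over 8 genes, had medians of 221.5 (range 174.5 to 301.4) at 8 months, 250.6 (177.0 to 452.6) at 18 months and 321.1 (179.6 to 751.1) later. The satellite cell sum, over 4 genes of the muscle stem cell, was 15.4 (11.2 to 18.9), 17.1 (16.6 to 20.2) and 14.6 (9.31 to 30.8). The keratinocyte sum, of interest for a skin gene such as Mpzl3, was 2.92 (2.15 to 4.63), 2.40 (1.91 to 3.34) and 1.88 (0.70 to 62.7). The slow fibre sum, with Myh2 among its 7 genes, was 1226 (402.3 to 2015) at 8 months, 925.5 (556.8 to 1758) at 18 months and 1593 (265.9 to 3745) later. All 7 slow fibre genes had a negative log2 difference between 18 and 8 months (median -0.31) and a positive one between 22 and 18 months (median 0.34), the same signs as the 4 lower genes. In both, 0 of the 7 had an unadjusted edgeR p below 0.05. Other lists shared signs too. All 6 fibroblast, 5 erythroid and 7 immediate early genes tested were negative between 18 and 8 months. Between 22 and 18 months 0, 3 and 1 of these were positive. Of 5 endothelial genes, 4 were negative in the first comparison and 5 positive in the second. All 8 macrophage genes had a positive difference between 18 and 8 months (median 0.32), as Mpzl3 and Gm7609 had. The part of these cells and fibres in the levels of the listed genes was not tested.

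The listed genes were 6 of 9, or 0.0715% of all tested genes, that passed FDR 0.01 between 18 and 8 months, the comparison that chose them. The other 3, named here after their values were seen, were Irf7 and Ifit1, both induced by interferon, and Amy1, an amylase. Irf7 and Ifit1 were high in a single mouse of 18 months, replicate 6, at 68.7 and 32.8 CPM beside medians of 5.72 and 5.05 CPM for the group. The same mouse had the highest Gm7609 value, 2.37 CPM. Without it Gm7609 still lay at a log2 difference of 1.57 between 18 and 8 months. Amy1 instead had a higher mean at every later age, from 51.8 ± 9.21 CPM (SD, n = 8) at 8 months through 74.4 ± 7.77 at 18 months to 136.3 ± 21.1 (SD, n = 9) at 28 months, and rose further between 22 and 28 months (log2 difference 0.61, FDR = 1.81e-05). The last listed gene inside the threshold was 9430073C21Rik, and the first gene outside was Kcnab1, a potassium channel subunit, with a log2 difference of 1.07.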

How the data were processed

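Poly(A) RNA of 50 gastrocnemius muscles had been sequenced as stranded libraries. Per the labels and the study's methods, the authors trimmed reads with Cutadapt 1.9.1 and assigned them, with strand, to Ensembl transcripts of GRCm38 with kallisto 0.43.1, dividing reads that fit several transcripts. The deposited counts are whole numbers per gene without normalization, and the deposited TPM values were scaled by the authors for transcript length and library size. Of 23880 genes, 23845 were found in GENCODE vM21, with 2610 lincRNA and 1870 antisense genes among them, although the methods name protein-coding transcripts.

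A single edgeR 4.0.16 model over the 6 ages (R 4.3.3) was fitted to the genes that reached 1 CPM in 8 mice or more, with TMM factors, quasi-likelihood tests and Benjamini-Hochberg adjustment, and an FDR of 0.01 was the threshold. CPM values use the TMM factors. Standard errors and 95% intervals came from the same fit. On simulated counts for 18 against 8 months over 12586 genes, 94 of 100 genes changed 2-fold and 100 of 100 changed 4-fold were called, with 1 of 12386 unchanged genes. The changed genes were drawn at random from all tested genes, with the spread set by abundance alone. These rates need not hold for genes as sparse as the listed ones. The alternatives were limma 3.58.1 on log2(TPM + 1) and log2(TPM + 0.1), DESeq2 1.42.0, other scalings, no filter, only the compared ages, a block for the replicate number, and the omission of single mice of 8 or 18 months. Per-mouse values were computed with Python 3.11.15 (scipy 1.17.1, numpy 2.4.6). Correlations used log2(CPM + 1), all pairings of 8 mice or 100000 permutations within ages, two-sided. Total counts of 13607229 to 21267375 per mouse set the precision, and the listed genes had as few as 2 reads in a mouse.

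The members and all lists were chosen with earlier results of these data known. Genes were named by rule: the 6 listed genes, the 3 genes most like each over the 50 mice, the 2 nearest genes on each side, and from each of 5 pathway lists the 2 most abundant and up to 3 past FDR 0.01 with the largest change, from which the text gives examples. Groups came from the sample titles. No 2 libraries agreed within sampling noise, the lowest ratio of variance to counting variance between mice of an age being 6.44. The labels do not say whether mice of an age shared a litter or shipment, so p-values measure the spread between these mice. Some genes of the lists are not reported here. No sequence variants were examined, and protein sequences were not used here.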

Additional observations from a re-analysis of the deposited data

Results flagged for a closer look

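Among the 36 combinations of a listed gene and an age, 9 held a mouse far from the others by Dixon's gap test at the 95% level. Chance flags about 1 in 20 where values are normally distributed. The linear CPM of such low counts need not be so distributed, so nothing is read from the number flagged. Of these, 3 fell at 18 months, each on the high side: Ube2c in replicate 2 (2.006 CPM), Mpzl3 in replicate 5 (25.72 CPM) and Gm7609 in replicate 6 (2.368 CPM). For Ube2c this mouse was the one nearest to the 8-month level, and for Mpzl3 and Gm7609 the one farthest from it. At 8 months 9430073C21Rik was high in replicate 3 (3.544 CPM). At the older ages Rabep2 was low in replicate 7 of 22 months (3.4 CPM) and high in replicate 1 of 24 months (11.19 CPM), A930016O22Rik was high in replicate 9 of 28 months (6.533 CPM), Mpzl3 in replicate 1 of 28 months (29.53 CPM) and Gm7609 in replicate 5 of 26 months (1.603 CPM). No cause was tested for any of these mice.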

How the results depend on the processing

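For the 6 genes, 24 alternatives were run in each comparison. In the 4 contrasts that leave out the 18 months-old mice, 564 of 576 values kept their direction and side of the threshold, 6 lost and 4 gained the call, and 2 changed sign: Rabep2 between 28 and 22 months was 0.01463 with limma on log2(TPM + 1) and 0.01851 on log2(TPM + 0.1). In these contrasts the lost calls were all of Gm7609 at 22 against 8 months, and the gained ones were Mpzl3 in that comparison (upper-quartile factors, DESeq2 and the compared ages alone) and 9430073C21Rik for the mean of 22 to 28 months without replicate 7 of 8 months. In the contrasts that include the 18 months-old mice, which chose the genes, only the size was followed. Of 288 values 13 moved by more than 1 SD, 9 of them between 18 and 8 months and 4 between 22 and 18 months. As to which genes would have been chosen, Ube2c, Rabep2 and A930016O22Rik passed FDR 0.01 between 18 and 8 months in 24 of 24 alternatives, Mpzl3 in 19, Gm7609 in 14 and 9430073C21Rik in 6.

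The number of genes past FDR 0.01 between 18 and 8 months, 9, was 4 with either limma fit and 4 with the compared ages alone, and 3 to 8 with a mouse left out (3 without replicate 4 of 8 months, 4 without replicates 3, 5 or 6 of 8 months or replicate 6 of 18 months, 5 without replicates 1 or 8 of 8 months). Between 22 and 18 months it was 1, with 2 by DESeq2 and 1 to 2 with a mouse left out (2 without replicates 6 or 8 of 8 months or replicate 2 of 18 months). Between 22 and 8 months it was 5, with 14 by upper-quartile factors, 34 by DESeq2, 12 by limma on log2(TPM + 0.1), 24 with the compared ages alone and 1 to 7 with a mouse left out (3 without replicate 1 of 8 months, 2 without replicate 5, and 1 without replicates 2, 3, 4 or 6). Between 28 and 22 months it was 3485, with 1883 for the compared ages alone and 3375 to 3635 with a mouse left out. With a mouse left out, the count was 4544 to 5135 for 28 against 8 months (4988 with all mice) and 1468 to 2500 for the mean of 22 to 28 months (2287 with all mice), the lowest without replicate 3 of 8 months. Upper-quartile factors changed the split of higher and lower genes, with 2249 of 5009 higher at 28 against 8 months (2639 of 4988 by TMM) and 1494 of 3440 at 28 against 22 months (2033 of 3485). The cause of these differences was not tested.

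With the replicate number as a block the counts were 6 between 18 and 8 months and 2 between 22 and 18 months. The labels do not say that the numbers pair mice of different ages. Over 121 same-numbered pairs the correlation of deviations from the age means had a median of 0.062 (range -0.61 to 0.43), and 52 were over 0.1. Pairs of unlike number were not computed beside them, so these values do not decide whether mice of a number have something in common. By deposited TPM the mice of 18 months outside all 42 others were 2 for Ube2c and 1 for Rabep2, those outside the 8-month range were 7 for Gm7609 in place of 8, and by CPM without TMM factors 1 for Mpzl3. Within the 18-month mice 3 weak correlations changed sign with log2(TPM + 1), to 0.37 for Rabep2 with Gm7609, 0.086 for 9430073C21Rik with Mpzl3 and 0.0042 for Mpzl3 with Gm7609. Depth limits 9430073C21Rik and Gm7609 most, with 4 to 19 and 7 to 39 reads per mouse at 18 months.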
